A study of Mus musculus with 4 samples.

Results

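The translation initiation and elongation factors described here are the genes of the count table whose symbol begins with *Eif* or *Eef* followed by a digit, with rows named as pseudogenes left out. There were 63 of them among 12067 genes, and all 63 passed the low-count filter of the test. The rule uses gene symbols only, and it leaves out translation factors with other names. The genes were measured by Quant-seq, which primes at the poly-A tail and counts each transcript near its 3′ end, in KL cells of donor origin, myeloid progenitors of the bone marrow that lack lineage markers and Sca-1 and carry c-Kit. The comparison asks which transcripts differ between progenitors with the intact and the recombined allele of *Bcor*, which encodes a subunit of a variant Polycomb repressive complex. There were 2 *Bcor* ΔE9-10 libraries, from donors labelled scl-Cre-ERT +; *Bcor*fl/y, and 2 *Bcor* WT libraries, from donors labelled *Bcor*fl/y for which no Cre is listed. All donors carried the floxed allele and, by the study's methods, had received tamoxifen (5 mg in total) at 3 to 6 months of age and were male. Cre was driven by a stem cell enhancer of *Scl*, so deletion started in haematopoietic stem cells. The labels describe transplants of whole bone marrow into *Ptprca* recipients and a sort of CD45.2-positive KL cells after 20 weeks. The methods give female recipients irradiated with 5.5 Gy, a dose that can leave host cells in the marrow. Whether the 2 libraries of a genotype came from separate donors is not stated, so the p-values below measure the spread between libraries. The genotypes differed in Cre as well as in *Bcor*, and these cannot be told apart.

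Translation initiation begins when eIF2 delivers the initiator tRNA to the small ribosomal subunit, which carries eIF1, eIF1A and the large eIF3 complex. The cap-binding complex eIF4F, made of eIF4E, a scaffold of the eIF4G family and the RNA helicase eIF4A, recruits this particle to the mRNA, and eIF5 and eIF5B complete the joining of the large subunit. eEF1A then brings aminoacyl-tRNA to the ribosome and eEF2 moves the ribosome along. Cells slow this machinery by phosphorylating eIF2alpha through the *Eif2ak* kinases, by holding eIF4E with 4E-BP proteins downstream of mTORC1, and by phosphorylating eEF2. In blood progenitors the rate of protein synthesis is known to be tightly set, low in stem cells and higher in dividing myeloid progenitors.

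Promoter sequence is shown first for 2 gene pairs described below, the helicase paralogs *Eif4a1* and *Eif4a2* and the elongation factors *Eef2* and *Eef1a1*. None of these 4 genes passed the test between genotypes. The sequences are from RefSeq (GRCm38.p6), read 5′ to 3′ on the strand of the gene, upstream of the RefSeq start and without bases of the gene's own exons. The window of *Eef1a1* lies within the longer span of that gene in GENCODE M21 (chr9:78478449-78489151). Capitals mark the E-box CACGTG, the hexamer bound by MYC-type factors, which reads the same on both strands.
*Eif4a1*, chr11:69672424-69672623, minus strand: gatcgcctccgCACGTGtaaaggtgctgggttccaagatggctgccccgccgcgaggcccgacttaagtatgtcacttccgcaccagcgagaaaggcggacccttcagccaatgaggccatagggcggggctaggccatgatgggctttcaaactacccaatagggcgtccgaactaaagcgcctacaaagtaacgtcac
*Eif4a2*, chr16:23107268-23107443, plus strand: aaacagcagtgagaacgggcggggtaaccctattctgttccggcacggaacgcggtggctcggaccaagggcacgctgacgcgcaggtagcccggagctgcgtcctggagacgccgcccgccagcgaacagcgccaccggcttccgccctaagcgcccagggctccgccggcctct
*Eef2*, chr10:81176531-81176630, plus strand: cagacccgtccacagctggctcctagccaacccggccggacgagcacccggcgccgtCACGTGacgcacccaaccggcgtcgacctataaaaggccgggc
*Eef1a1*, chr9:78481725-78481824, minus strand: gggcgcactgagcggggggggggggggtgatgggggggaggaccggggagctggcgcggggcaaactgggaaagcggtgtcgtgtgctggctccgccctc
The first letter of the E-box lay at position -189 from the start of *Eif4a1* and at -43 from that of *Eef2*, and the windows printed for *Eif4a2* and *Eef1a1* held none. Of the 63 genes 49 had a promoter in the RefSeq table, and 11 of these (22.4%) held CACGTG between 250 bases before and 50 bases after a start. It was found in 12.3% of the 8396 genes of the count table with a promoter entry and in 8.09% of all 27025 genes with one. The 11 genes were *Eef2*, *Eef2k*, *Eif1b*, *Eif3a*, *Eif3f*, *Eif3k*, *Eif4a1*, *Eif4e*, *Eif4g1*, *Eif4h* and *Eif5a*. Genes with several annotated starts had more windows in which to hold the hexamer, 64 starts for the 49 genes and 10713 for the 8396. Counted by start, the hexamer was held by 13 of the 64 and by 1106 of the 10713. The median log2 fold change was 0.17 for the 11 genes with the hexamer and 0.17 for the other 38, a description of the letters and no test of a factor.

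Library totals were 5058140 (replicate 1) and 6253100.5 (replicate 2) for *Bcor* ΔE9-10, against 3825289.5 and 4992205 for *Bcor* WT. A count of 3 was worth 0.489 to 0.876 CPM (counts per 1e6, scaled by TMM factors, the unit of all levels below). *Bcor* WT replicate 2 stood apart. Its log2 CPM had the lowest correlations with the other libraries, 0.893 to 0.902 across 12067 genes (genes are not independent replicates), and the rRNA-like gene *Gm42418* took 1.43% of its counts against 14.3 to 27.9% elsewhere. KL markers were all present (12 of 12) and summed to 11573 and 8861 CPM in *Bcor* ΔE9-10 and 11680 and 11836 CPM in *Bcor* WT, while 9 of 9 mature neutrophil markers summed to 63183 and 154572 CPM in *Bcor* ΔE9-10 and 94143 and 142064 CPM in *Bcor* WT. Erythroid markers (9 of 13 in the table) summed to 204 and 186 CPM in *Bcor* ΔE9-10 and 78.0 and 88.1 CPM in *Bcor* WT, and eosinophil, basophil and mast cell markers (10 of 11) to 282 and 252 CPM against 593 and 768 CPM. Of T and NK cell markers 2 of 7 were in the table, without *Cd3e*, and summed to 2.22 and 2.61 CPM against 6.42 and 5.08 CPM. These 3 lists and the KL list did not overlap between genotypes, and their part in the results below was not tested. Megakaryocyte markers summed to 108 and 141 CPM against 110 and 266 CPM, and monocyte and dendritic cell markers to 1596 and 3032 CPM against 1973 and 4116 CPM. The *Bcor* gene itself was covered by 104 and 113 reads in ΔE9-10 cells against 58 and 79 in WT cells; reads from the 3′ end lie outside the deleted exons and do not check the genotype. In bulk samples, more transcripts per cell and more cells of a type that carries them cannot be told apart.

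None of the 63 genes passed the test between genotypes. With edgeR's quasi-likelihood test and Benjamini-Hochberg adjustment over all 12067 genes, 0 of the 63 had an adjusted p under 0.05, against a background of 0.0166% of all genes, and their adjusted p lay between 0.945 and 0.997. At an unadjusted p under 0.05, 0 of the 63 were higher (background 1.34%) and 0 lower (background 3.07%, or 4.42% in either direction) in *Bcor* ΔE9-10, and the lowest unadjusted p, that of *Eif2ak2* by edgeR, was 0.0638. limma-voom gave 0 genes at the adjusted threshold and 2 higher genes at the unadjusted threshold, *Eif2ak3* and *Eif4a2* (3.17%, beside 1.60% of all genes higher in that fit), and DESeq2 gave 0 at both, with 43 of all genes at the adjusted threshold and 1.03% higher and 3.17% lower unadjusted. Log2 fold changes, *Bcor* ΔE9-10 against *Bcor* WT, ran from -1.01 for *Eif2ak2* to 0.93 for *Eif2ak3*. The median was 0.11, beside -0.027 over all genes, with 34 genes above 0 and 29 below. With 1 library left out it ran from 0.035 to 0.19, and the median over all genes from -0.041 to 0.025. In simulated counts the same edgeR test recovered 32.3% of genes set to a log2 fold change of 1.5 in size. Smaller changes were not simulated, so a gene that did not pass may still differ between genotypes.

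**Figure D1:**
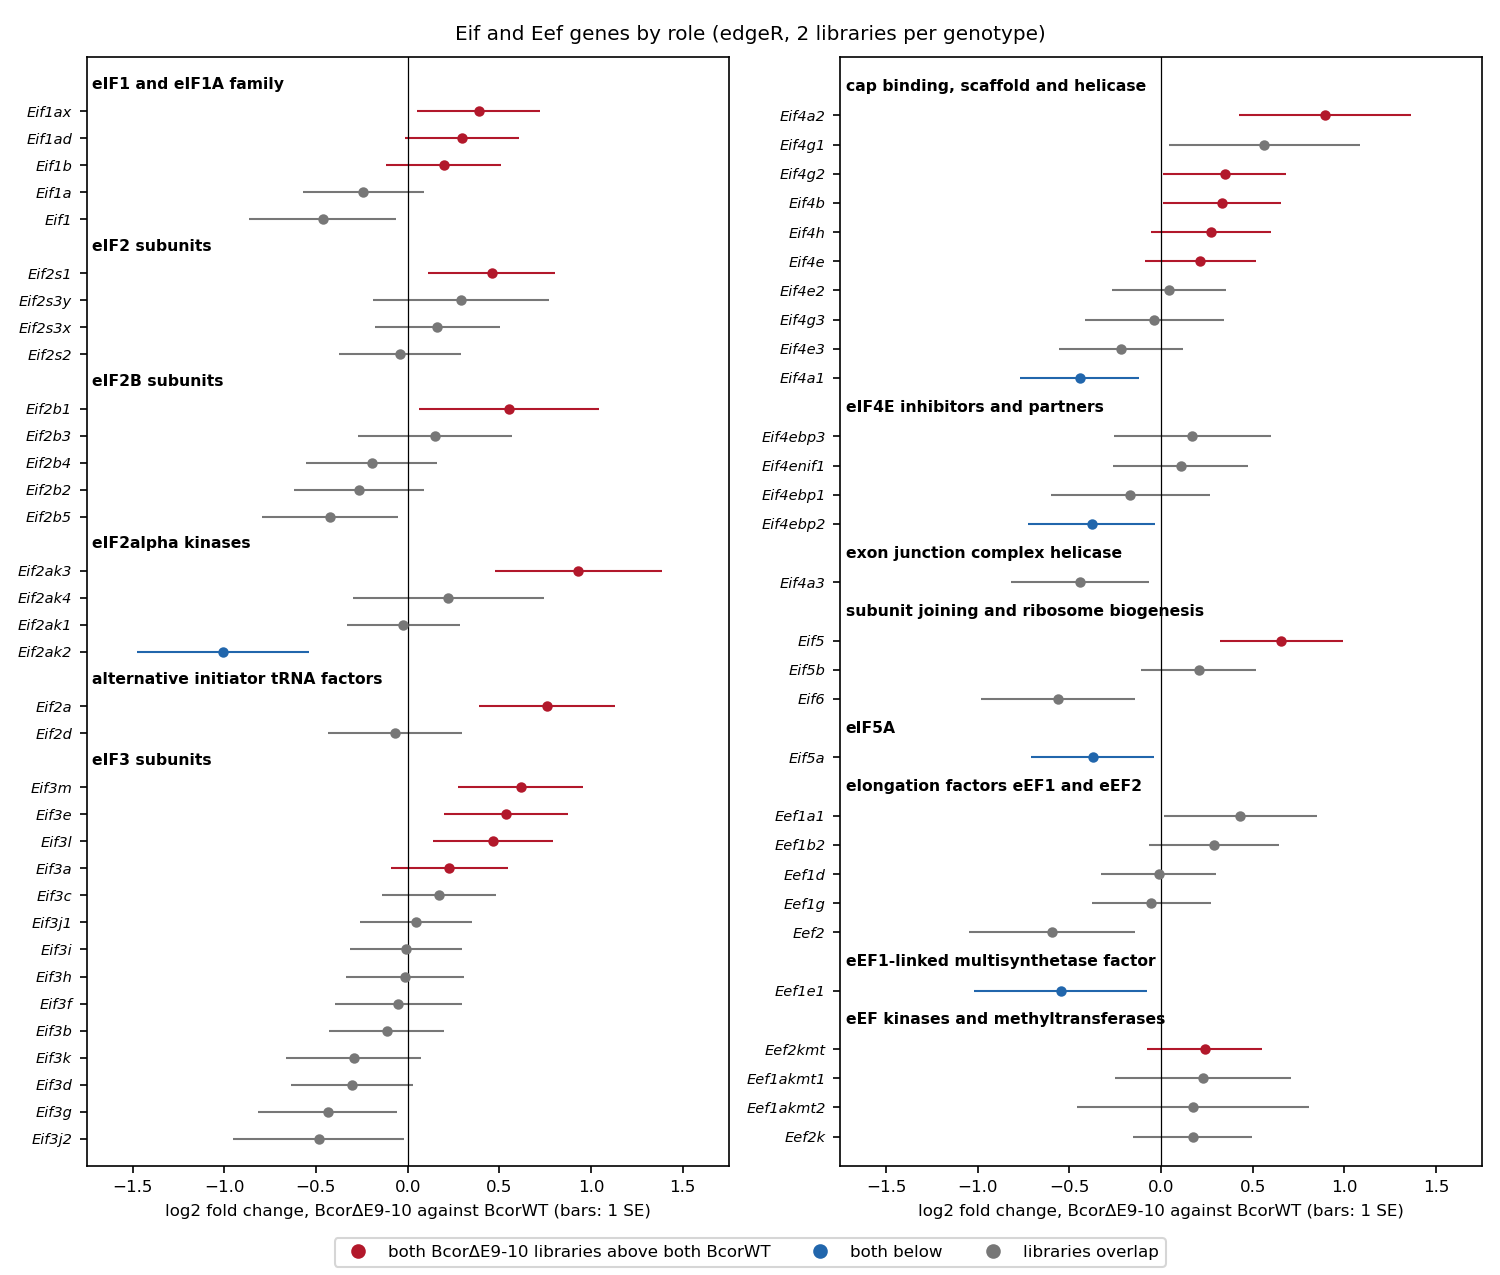
Log2 fold change of each of the 63 genes (x axis, *Bcor* ΔE9-10 against *Bcor* WT, edgeR) by role, with bars of 1 standard error; red marks genes with both *Bcor* ΔE9-10 libraries higher than either *Bcor* WT library, blue those with both lower, grey those that overlapped. The values span -1.01 to 0.93, with 18 red, 5 blue and 40 grey points.

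In 18 genes the *Bcor* ΔE9-10 libraries were both higher than either *Bcor* WT library (28.6%, background 16.8%) and in 5 both lower (7.94%, background 17.1%). The other 40 overlapped, beside 7982 of all 12067 genes. The 5 were *Eif2ak2*, *Eef1e1*, *Eif4a1*, *Eif4ebp2* and *Eif5a*. A library of each genotype moved with this count. *Bcor* WT replicate 2 was the lowest of the 4 libraries for 33 of the 63 genes (52.4%, against 36.1% of all genes) and the highest for 15 (23.8%, against 34.5%), and *Bcor* ΔE9-10 replicate 1 was the highest for 24 (38.1%, against 20.4%) and the lowest for 6 (9.52%, against 20.8%). Without *Bcor* WT replicate 2, the *Bcor* ΔE9-10 libraries were both higher than the remaining *Bcor* WT library for 22 genes (34.9%, against 33.4% of all genes) and both lower for 19 (30.2%, against 35.7%). Without *Bcor* ΔE9-10 replicate 1, the remaining library was higher than both of *Bcor* WT for 21 genes (33.3%, against 29.1%) and lower for 16 (25.4%, against 29.7%). Without *Bcor* ΔE9-10 replicate 2 it was higher for 29 (46.0%, against 29.0%) and lower for 8 (12.7%, against 29.2%). Without *Bcor* WT replicate 1 the *Bcor* ΔE9-10 libraries were both higher than replicate 2 for 39 (61.9%, against 40.9%) and both lower for 16 (25.4%, against 40.6%). These counts are a description, with no test.

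The *Bcor* WT libraries differed from each other by more than the genotypes did for 51 of the 63 genes, and the *Bcor* ΔE9-10 libraries for 27. The median size of the log2 difference was 0.51 between the *Bcor* WT libraries, 0.24 between the *Bcor* ΔE9-10 libraries and 0.27 between genotypes. Over all genes the same medians were 0.57, 0.31 and 0.33. The *Bcor* WT libraries differed by more than 1 on the log2 scale for 10 of the 63 genes (15.9%, against 24.3% of all genes), and the *Bcor* ΔE9-10 libraries for 0 (against 8.92%). For 10 genes (15.9%, against 21.6% of all genes) the difference between genotypes was larger than both differences within a genotype.

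**Figure D2:**
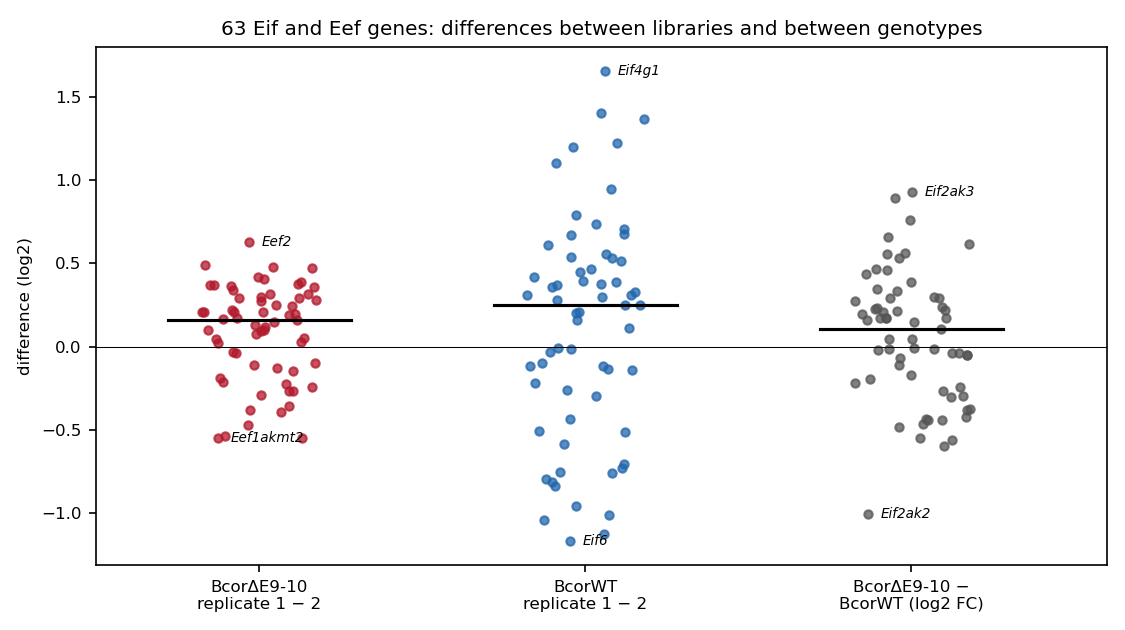
Log2 differences (y axis) of the 63 genes between the 2 *Bcor* ΔE9-10 libraries, between the 2 *Bcor* WT libraries and between genotypes; each point is a gene, horizontal bars are medians, and the highest and the lowest gene of each column are named. The *Bcor* WT column is the widest, with 10 genes beyond 1 in size against 0 in the *Bcor* ΔE9-10 column.

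The eIF1 and eIF1A family had a median log2 fold change of 0.20 over 5 genes, 2 of them below 0. eIF1 and eIF1A read the start codon, whereas *Eif1ad* encodes a protein with an eIF1A domain that acts in small subunit assembly, and the median of the other 4 genes was -0.023. *Eif1*, which keeps the scanning ribosome from starting at poor codons, was at 296 and 356 CPM in *Bcor* ΔE9-10 and 305 and 593 CPM in *Bcor* WT. *Bcor* WT replicate 2 was high and the other 3 libraries were alike, and the log2 fold change of -0.46 (SE 0.40; edgeR adjusted p = 0.945) became 0.094 without that library. Near-identical pseudogene copies (*Eif1-ps1*, *Gm5471* and *Gm6155*) held 1.71 to 10.9% of the summed counts, and adding them gave -0.45. The X-linked and autosomal genes for eIF1A had log2 fold changes of opposite sign. *Eif1ax* was at 45.8 and 50.7 CPM in *Bcor* ΔE9-10 and 44.1 and 29.9 CPM in *Bcor* WT, a log2 fold change of 0.39 (SE 0.34; 0.13 to 0.69 with 1 library left out). *Eif1a* was at 39.4 and 29.7 CPM in *Bcor* ΔE9-10 and 36.5 and 45.0 CPM in *Bcor* WT, a log2 fold change of -0.24 (SE 0.33; -0.46 to -0.048 with 1 library left out). The ratio of *Eif1ax* to *Eif1a* counts overlapped between genotypes, at 1.16 and 1.71 against 1.21 and 0.665.

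The subunits of eIF2, which carries the initiator tRNA, had a median log2 fold change of 0.23 over 4 genes, which was -0.046 without *Bcor* WT replicate 2. Of the 4 genes 3 overlapped between genotypes, beside 7982 of all 12067 genes. *Eif2s1*, the eIF2alpha subunit whose phosphorylation slows initiation, was at 34.6 and 32.3 CPM in *Bcor* ΔE9-10 and 19.3 and 29.2 CPM in *Bcor* WT. Both *Bcor* ΔE9-10 libraries were the higher ones, and the log2 fold change was 0.46 (SE 0.34; edgeR adjusted p = 0.945), from 0.19 to 0.79 with 1 library left out. The gamma subunit is encoded on both sex chromosomes of the mouse. *Eif2s3x* was at 44.7 and 51.0 CPM in *Bcor* ΔE9-10 and 52.0 and 33.9 CPM in *Bcor* WT, a log2 fold change of 0.16 (SE 0.34). Its X-linked pseudogene *Gm2223*, identical over the aligned length, held 2.73 to 16.6% of the summed counts, and the sum gave 0.25. *Eif2s3y* was at 15.5 and 16.6 CPM in *Bcor* ΔE9-10 and 18.7 and 7.90 CPM in *Bcor* WT, a log2 fold change of 0.29 (SE 0.48) that ran from -0.22 to 1.02 with 1 library left out. It was low in *Bcor* WT replicate 2 alone, as was the Y-linked gene *Ddx3y* at 32.2 CPM against 58.4 to 64.9 CPM. The Y-linked *Uty* was likewise at 6.96 CPM in that library against 17.9 to 19.6 CPM. *Kdm5d*, also Y-linked, was at 3.88 and 6.19 CPM in *Bcor* ΔE9-10 and 10.2 and 2.63 CPM in *Bcor* WT, a log2 fold change of -0.31. *Xist*, the RNA of the inactive X chromosome and a female marker, was at 2.40 and 3.91 CPM in *Bcor* ΔE9-10 and 18.7 and 19.0 CPM in *Bcor* WT. Its log2 fold change was -2.56 (edgeR adjusted p = 0.419). *Ptprca* hosts are female and carry CD45.1 in place of the CD45.2 used in the sort, so the gate was set to remove their cells. The part of any remaining host cells in the level of *Eif2s3y* was not tested.

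eIF2B recharges eIF2 with GTP. Its 5 genes had a median log2 fold change of -0.20, with 2 above 0 and 3 below. *Eif2b1*, a regulatory subunit, was at 9.06 and 11.7 CPM in *Bcor* ΔE9-10 (49 and 72 counts) against 4.96 and 9.03 CPM in *Bcor* WT (17 and 48 counts). Its libraries did not overlap, although *Bcor* WT replicate 2 lay next to the *Bcor* ΔE9-10 libraries, and the log2 fold change was 0.55 (SE 0.49; edgeR adjusted p = 0.945), from 0.20 without *Bcor* WT replicate 1 to 1.06 without *Bcor* WT replicate 2. *Eif2b5*, the catalytic epsilon subunit, was at 69.7 and 54.3 CPM in *Bcor* ΔE9-10 and 60.5 and 105 CPM in *Bcor* WT, and its log2 fold change of -0.42 became 0.035 without *Bcor* WT replicate 2.

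The kinases that phosphorylate eIF2alpha held both ends of the range. *Eif2ak2* encodes PKR, the kinase activated by double-stranded RNA and induced by interferon, and lies at chr17:78852564-78882573 (GENCODE M21, GRCm38). Its level was 10.3 and 14.5 CPM in *Bcor* ΔE9-10 (56 and 89 counts) against 15.5 and 34.2 CPM in *Bcor* WT (53 and 182 counts). Both *Bcor* ΔE9-10 libraries were below both *Bcor* WT libraries, with replicate 2 of *Bcor* ΔE9-10 close to replicate 1 of *Bcor* WT. The log2 fold change was -1.01 (SE 0.47; edgeR adjusted p = 0.945) and lay between -1.46 and -0.31 with 1 library left out. *Eif2ak3* encodes PERK, the kinase that senses unfolded protein in the endoplasmic reticulum, and lies at chr6:70844515-70905245. Its level was 23.5 and 34.2 CPM in *Bcor* ΔE9-10 (127 and 210 counts) against 21.0 and 9.60 CPM in *Bcor* WT (72 and 51 counts). Here both *Bcor* ΔE9-10 libraries were above, replicate 1 only slightly. The log2 fold change was 0.93 (SE 0.46; edgeR adjusted p = 0.945), between 0.46 and 1.58 with 1 library left out. The ratio of *Eif2ak3* to *Eif2ak2* counts, which does not depend on scaling, was 2.27 and 2.36 for *Bcor* ΔE9-10 but 1.36 and 0.280 in the *Bcor* WT libraries. That these ratios did not overlap follows from the levels of *Eif2ak3*, above, and *Eif2ak2*, below, and adds nothing to them. The ratios differed between the *Bcor* WT libraries by 2.28 on the log2 scale, more than between genotypes (1.91). With 2 libraries against 2, a two-sided exact permutation test cannot give a p below 0.333. The other kinases overlapped: *Eif2ak1*, the haem-regulated kinase, was at 47.0 to 58.4 CPM in all libraries, and *Eif2ak4*, which senses uncharged tRNA, was at 12.0 and 10.3 CPM in *Bcor* ΔE9-10 and 13.7 and 5.65 CPM in *Bcor* WT.

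*Eif2a* encodes eIF2A, a factor distinct from eIF2 that can bring initiator tRNA to some mRNAs. It was at 27.9 and 30.2 CPM in *Bcor* ΔE9-10 and 21.3 and 13.2 CPM in *Bcor* WT, so both *Bcor* ΔE9-10 libraries were above and close to each other. The log2 fold change was 0.76 (SE 0.37; edgeR adjusted p = 0.945) and 0.45 to 1.14 with 1 library left out. Exons of *Eif2a* overlap *Serp1* on the opposite strand, and whether reads were counted by strand is not stated.

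**Figure D3:**
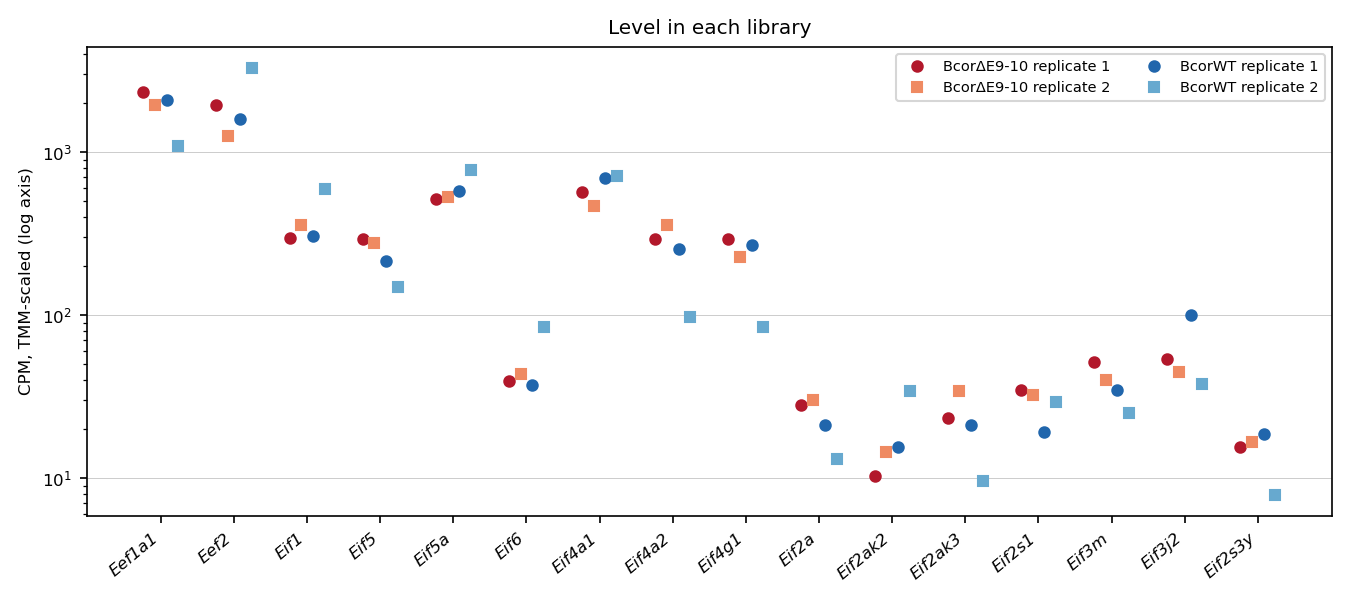
TMM-scaled CPM (y axis, log scale) of 16 of the genes in each library; circles are replicate 1 and squares replicate 2, *Bcor* ΔE9-10 in red and *Bcor* WT in blue. *Bcor* WT replicate 2 is the lowest point for *Eef1a1*, *Eif4a2*, *Eif4g1* and *Eif2ak3* and the highest for *Eef2*, *Eif1*, *Eif6* and *Eif2ak2*.

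eIF3, the scaffold that holds the small subunit, had 14 genes with a median log2 fold change of -0.011, 6 above 0 and 8 below. *Eif3a*, the largest subunit, was at 342 and 320 CPM in *Bcor* ΔE9-10 and 313 and 253 CPM in *Bcor* WT, a log2 fold change of 0.23 (SE 0.32; 0.080 to 0.38 with 1 library left out). *Eif3m* had the highest value of the complex. It was at 51.6 and 39.9 CPM in *Bcor* ΔE9-10 and 34.8 and 25.0 CPM in *Bcor* WT, without overlap, and the log2 fold change was 0.62 (SE 0.34; edgeR adjusted p = 0.945). The pseudogene *Gm7658*, 98.5% identical to *Eif3m*, held 36.4 and 4.30% of the summed counts of the *Bcor* ΔE9-10 libraries against 25.2 and 6.34% in *Bcor* WT, so reads may be divided between them differently in each library; the sum gave 0.75 (SE 0.44). *Eif3e* and *Eif3l* were also higher in both *Bcor* ΔE9-10 libraries, with log2 fold changes of 0.53 (0.28 to 0.76 with 1 library left out) and 0.47 (0.30 to 0.62). *Eif3j2* was at 53.6 and 45.0 CPM in *Bcor* ΔE9-10 and 101 and 37.8 CPM in *Bcor* WT, a log2 fold change of -0.49 (SE 0.47) that ran from -1.03 to 0.38. It was high in *Bcor* WT replicate 1 alone. Its last 300 bases match a stretch of an *Eif3j1* transcript with 1 mismatch, so its 3′ reads may be divided between the genes. For the last 300 bases of *Eif3j1* no match to *Eif3j2* was found, and the division of reads was not tested. *Eif3j1* was at 135 and 126 CPM in *Bcor* ΔE9-10 and 131 and 122 CPM in *Bcor* WT, a log2 fold change of 0.046 (SE 0.30). The remaining subunits *Eif3b*, *Eif3c*, *Eif3d*, *Eif3f*, *Eif3g*, *Eif3h*, *Eif3i* and *Eif3k* overlapped between genotypes.

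In the cap-binding machinery 7 of 10 genes had a log2 fold change above 0 (70.0%, beside 47.7% of all genes). The median was 0.24, which became 0.047 without *Bcor* WT replicate 2. The helicase paralogs had opposite signs. *Eif4a1*, which encodes the general eIF4A helicase, lies at chr11:69666936-69672423 and was at 570 and 466 CPM in *Bcor* ΔE9-10 and 697 and 713 CPM in *Bcor* WT. Both *Bcor* ΔE9-10 libraries were below, and the *Bcor* WT libraries were close to each other. The log2 fold change was -0.44 (SE 0.33; edgeR adjusted p = 0.945), between -0.60 and -0.30 with 1 library left out. *Eif4a2*, the paralog whose product has also been linked to repression by microRNAs, lies at chr16:23107444-23114136 and was at 293 and 358 CPM in *Bcor* ΔE9-10 and 253 and 97.7 CPM in *Bcor* WT. Both *Bcor* ΔE9-10 libraries were above, and *Bcor* WT replicate 2 was the low one. The log2 fold change was 0.89 (SE 0.47; edgeR adjusted p = 0.945), between 0.36 and 1.73 with 1 library left out. At the closest match, the last 300 bases of an *Eif4a2* transcript were 82.3% identical to a stretch of *Eif4a1*. That leaves many positions to tell reads of this stretch apart. Exons of *Eif4a2* overlap *Rfc4* on the opposite strand and *Snora81* on the same strand. Exons of *Eif4a1* overlap *Gm22988* on the same strand. The ratio of *Eif4a2* to *Eif4a1* counts was 0.513 and 0.769 for *Bcor* ΔE9-10 but 0.363 and 0.137 in the *Bcor* WT libraries. Its lack of overlap between genotypes follows from the levels of *Eif4a2*, above, and *Eif4a1*, below, and adds nothing to them. The ratio differed between genotypes by 1.49 on the log2 scale and between the *Bcor* WT libraries by 1.41.

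*Eif4e*, the cap-binding protein, was at 59.5 and 58.7 CPM in *Bcor* ΔE9-10 and 47.0 and 54.8 CPM in *Bcor* WT, a log2 fold change of 0.21 (SE 0.30; 0.11 to 0.33 with 1 library left out). Among the scaffolds, *Eif4g1* was at 294 and 228 CPM in *Bcor* ΔE9-10 and 269 and 85.1 CPM in *Bcor* WT. Only *Bcor* WT replicate 2 was low, and the log2 fold change of 0.56 (SE 0.52; edgeR adjusted p = 0.945) became -0.044 without it. *Eif4g2*, whose product lacks the eIF4E-binding part, was at 558 and 549 CPM in *Bcor* ΔE9-10 and 503 and 369 CPM in *Bcor* WT, a log2 fold change of 0.35 (SE 0.33; 0.14 to 0.58 with 1 library left out). *Eif4g3* was at 80.9 and 119 CPM in *Bcor* ΔE9-10 and 128 and 77.0 CPM in *Bcor* WT, a log2 fold change of -0.039 (SE 0.38). The helicase cofactors *Eif4b* and *Eif4h* did not overlap between genotypes, with log2 fold changes of 0.33 (SE 0.32) and 0.27 (SE 0.33). With 1 library left out *Eif4b* ran from 0.16 to 0.53, and *Eif4h* from 0.035 without *Bcor* WT replicate 1 to 0.55 without *Bcor* WT replicate 2. The eIF4E relatives *Eif4e2* and *Eif4e3* overlapped. *Eif4a3*, an eIF4A relative that serves in the exon junction complex, was at 160 and 130 CPM in *Bcor* ΔE9-10 and 141 and 252 CPM in *Bcor* WT, and its log2 fold change of -0.44 became 0.039 without *Bcor* WT replicate 2.

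The products of the 4E-BP genes hold eIF4E until mTORC1 phosphorylates them. *Eif4ebp1* was at 15.9 and 19.2 CPM in *Bcor* ΔE9-10 and 12.8 and 26.3 CPM in *Bcor* WT, a log2 fold change of -0.17 (SE 0.43) that was 0.45 without *Bcor* WT replicate 2. *Eif4ebp2* was at 17.7 and 15.8 CPM in *Bcor* ΔE9-10 and 21.0 and 22.6 CPM in *Bcor* WT, below in all libraries, a log2 fold change of -0.38 (SE 0.34; edgeR adjusted p = 0.945) that stayed between -0.46 and -0.29 with 1 library left out. *Eif4ebp3* was at 14.4 and 12.6 CPM in *Bcor* ΔE9-10 and 14.9 and 9.22 CPM in *Bcor* WT, a log2 fold change of 0.17 (SE 0.43) that was -0.14 without *Bcor* WT replicate 2. *Eif4enif1*, which carries eIF4E into the nucleus, overlapped between genotypes.

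**Figure D4:**
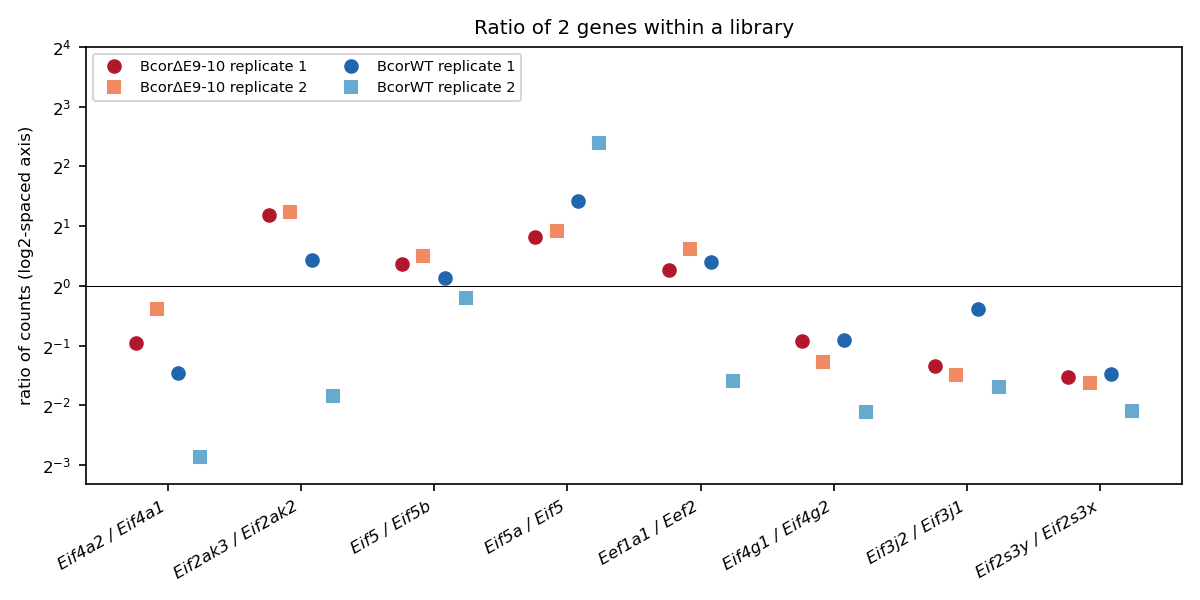
Ratio of the counts of 2 genes within each library (y axis, spaced by powers of 2) for 8 pairs; circles are replicate 1 and squares replicate 2, *Bcor* ΔE9-10 in red and *Bcor* WT in blue. The ratios of *Eif4a2* to *Eif4a1*, *Eif2ak3* to *Eif2ak2*, *Eif5* to *Eif5b* and *Eif5a* to *Eif5* do not overlap between genotypes, and *Bcor* WT replicate 2 lies farthest out in each of these 4. For all of these but *Eif5* to *Eif5b*, this follows from the levels of the 2 genes, which do not overlap and differ in opposite directions.

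*Eif5*, which triggers GTP hydrolysis by eIF2 at the start codon, was at 294 and 279 CPM in *Bcor* ΔE9-10 and 215 and 149 CPM in *Bcor* WT. The *Bcor* ΔE9-10 libraries were alike and both above. The log2 fold change was 0.66 (SE 0.34; edgeR adjusted p = 0.945) and 0.41 to 0.94 with 1 library left out. *Eif5b*, which joins the large subunit, overlapped at 227 and 196 CPM against 197 and 170 CPM. The ratio of *Eif5* to *Eif5b* counts was 1.30 and 1.42 for *Bcor* ΔE9-10 but 1.09 and 0.874 in the *Bcor* WT libraries. This difference, 0.47 on the log2 scale, was larger than the 0.32 between the *Bcor* WT libraries and the 0.13 between the *Bcor* ΔE9-10 libraries. *Eif6*, which keeps free large subunits from joining, was at 39.6 and 43.4 CPM in *Bcor* ΔE9-10 and 37.4 and 84.7 CPM in *Bcor* WT. *Bcor* WT replicate 2 alone was high, and the log2 fold change of -0.56 (SE 0.42) became 0.15 without it. *Eif5a*, the hypusine-bearing factor that helps the ribosome past difficult stretches such as runs of proline, was at 516 and 529 CPM in *Bcor* ΔE9-10 and 576 and 778 CPM in *Bcor* WT. Both *Bcor* ΔE9-10 libraries were below, and the log2 fold change was -0.37 (SE 0.34; edgeR adjusted p = 0.945), between -0.58 and -0.14 with 1 library left out. The ratio of *Eif5a* to *Eif5* counts was 1.76 and 1.90 for *Bcor* ΔE9-10 but 2.68 and 5.22 in the *Bcor* WT libraries.

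The elongation factors overlapped between genotypes in all 5 genes (beside 7982 of all 12067 genes), with a median log2 fold change of -0.014. *Eef1a1*, which brings aminoacyl-tRNA to the ribosome, was at 2356 and 1948 CPM in *Bcor* ΔE9-10 (12749 and 11949 counts) against 2099 and 1090 CPM in *Bcor* WT (7188 and 5792 counts). *Bcor* WT replicate 2 was the low one, and the log2 fold change of 0.43 (SE 0.41; edgeR adjusted p = 0.945) ran from 0.035 to 0.98. Its pseudogene copies *Gm13456* and *Gm6548* held 0.347 to 1.90% of the summed counts, and its exons overlap *Gm26377* on the same strand. *Eef2*, the translocation factor, was at 1954 and 1264 CPM in *Bcor* ΔE9-10 (10571 and 7756 counts) against 1588 and 3273 CPM in *Bcor* WT (5438 and 17395 counts). In this gene *Bcor* WT replicate 2 was the high one, and the log2 fold change of -0.60 (SE 0.45; edgeR adjusted p = 0.945) became 0.018 without it. The ratio of *Eef1a1* to *Eef2* counts was thus 1.21 and 1.54 in *Bcor* ΔE9-10 and 1.32 in *Bcor* WT replicate 1, and 0.333 in *Bcor* WT replicate 2. *Eef1b2*, *Eef1d* and *Eef1g*, the exchange factors that reload eEF1A with GTP or hold that complex, had log2 fold changes of 0.29, -0.014 and -0.054. With 1 library left out *Eef1b2* ran from 0.034 to 0.51, and *Eef1d* (-0.16 to 0.14) and *Eef1g* (-0.26 to 0.13) changed sign. *Eef1e1*, a small protein of the tRNA synthetase complex, was at 5.91 and 7.82 CPM in *Bcor* ΔE9-10 (32 and 48 counts) against 12.0 and 8.28 CPM in *Bcor* WT (41 and 44 counts), a log2 fold change of -0.55 (SE 0.47; edgeR adjusted p = 0.945) that ran from -0.80 to -0.27 with 1 library left out. The enzymes that modify elongation factors had log2 fold changes from 0.17 to 0.24 in all 4 genes. Of these 3 overlapped between genotypes (beside 7982 of all 12067 genes). With 1 library left out 2 changed sign (*Eef1akmt2*, -0.16 to 0.67, and *Eef2k*, -0.017 to 0.38). *Eef2kmt*, a lysine methyltransferase of eEF2, was at 37.7 and 32.6 CPM in *Bcor* ΔE9-10 and 28.3 and 31.2 CPM in *Bcor* WT, and *Eef2k*, the kinase that inhibits eEF2, at 36.0 and 33.3 CPM against 35.0 and 26.5 CPM.

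As a share of the whole library, the 63 genes took 1.44% (95% Wilson interval 1.43 to 1.45%) and 1.12% (1.11 to 1.12%) of counts in *Bcor* ΔE9-10, against 1.10% (1.09 to 1.11%) and 1.35% (1.34 to 1.36%) in *Bcor* WT. The intervals cover counting error only. The shares overlapped between genotypes, and replicates of a genotype differed by more than their intervals. With *Gm42418* left out of the totals the shares were 1.72 and 1.30% against 1.52 and 1.37%, which also overlapped.

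Leaving out *Bcor* WT replicate 1, so that *Bcor* WT was represented by replicate 2 alone, gave 4 of the 63 genes an adjusted p under 0.05, *Eif4a2* (0.0234), *Eif4g1* (0.0284), *Eif2ak2* (0.0422) and *Eif2ak3* (0.0487) by edgeR. The same fit called 596 genes over the whole table, against 2 with all libraries, and at an unadjusted p under 0.05 it had 10 of the 63 genes higher and 7 lower, beside 11.9 and 13.1% of all genes. The lone library is assumed there to vary as the others do, and the adjusted p of these 4 genes reached 1.00 under other alternatives. Leaving out *Bcor* WT replicate 2 gave 0 genes at the adjusted threshold and, unadjusted, *Eif2s1* higher (edgeR adjusted p = 0.824) and *Eif3j2* lower (edgeR adjusted p = 0.337), 1.59% of the 63 genes in each direction beside 2.18 and 3.53% of all genes in that fit. Over the 4 fits without 1 library, 32 of the 63 genes kept the sign of the log2 fold change and 31 changed it in at least 1 fit, 20 of them without *Bcor* WT replicate 2.

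**Figure D5:**
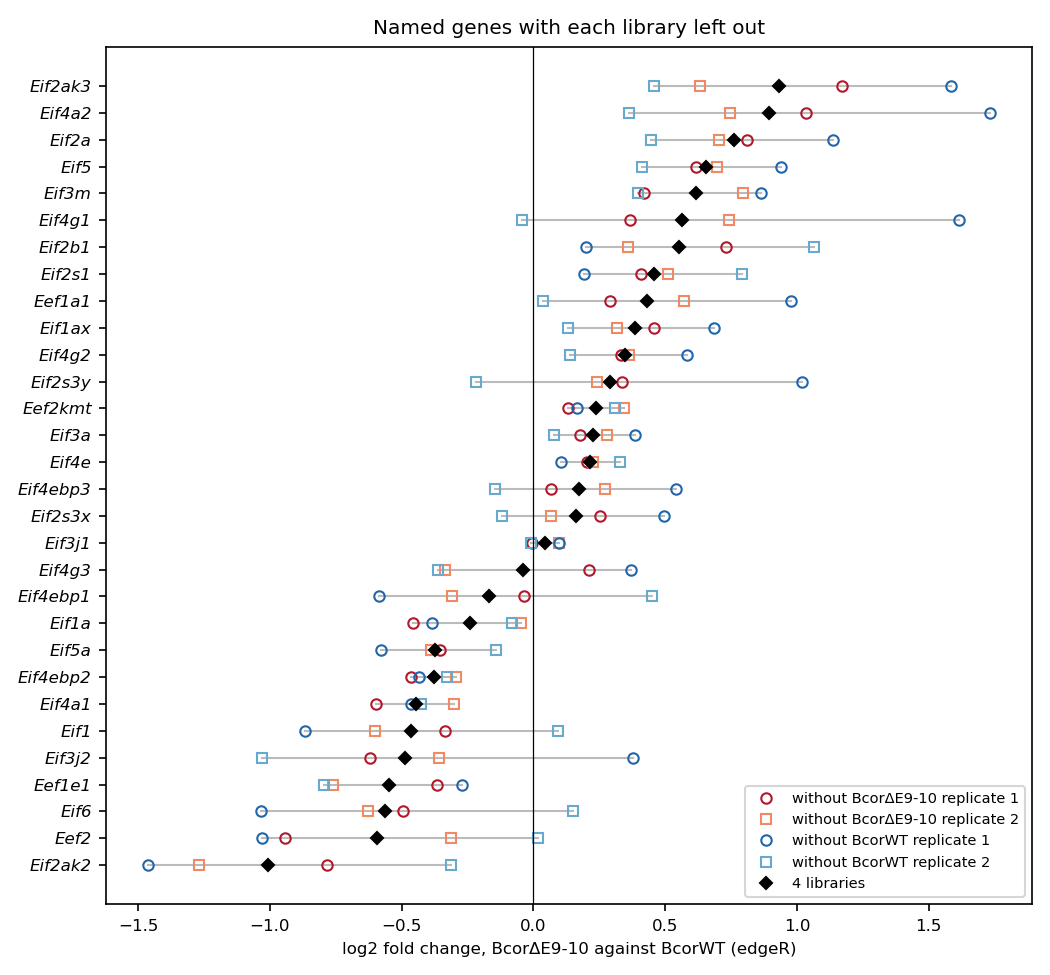
Log2 fold change (x axis, *Bcor* ΔE9-10 against *Bcor* WT, edgeR) of 30 named genes with all 4 libraries (black diamonds) and with each library left out (open symbols); grey lines join the lowest and highest. Leaving out a *Bcor* WT library gives the lowest value for 26 genes and the highest for 25, and 11 of the 30 genes have a symbol on the other side of 0 from their diamond.

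Of 45 further cytosolic translation factors and regulators 42 were in the table, with a median log2 fold change of 0.015 (-0.11 without *Bcor* WT replicate 2 to 0.16 without *Bcor* WT replicate 1), 0 genes at an edgeR adjusted p under 0.05, 0 higher (beside 1.34% of all genes) and 1 lower (beside 3.07%) at an unadjusted p under 0.05. That gene was *Dph1*, an enzyme of the diphthamide modification of eEF2, at 7.58 and 9.29 CPM in *Bcor* ΔE9-10 (41 and 57 counts) against 7.01 and 69.3 CPM in *Bcor* WT (24 and 368 counts). Its log2 fold change of -2.19 (SE 0.86; edgeR adjusted p = 0.945) rested on *Bcor* WT replicate 2 and was 0.27 without it. Of 21 genes of the mTORC1 pathway to 4E-BP and S6 kinase 19 were in the table, with a median of -0.19, 14 below 0, 0 at the adjusted threshold, 1 higher (beside 1.34% of all genes) and 0 lower (beside 3.07%) at an unadjusted p under 0.05. Of all 12067 genes, 6317 lay below 0. Without *Bcor* WT replicate 2 the median of the 19 genes was 0.16, with 7 below 0, and over the 4 fits without 1 library it ran from -0.41 to 0.16. The higher one was *Rps6*, the ribosomal protein phosphorylated by S6 kinase, at 507 and 518 CPM in *Bcor* ΔE9-10 and 319 and 101 CPM in *Bcor* WT, a log2 fold change of 1.29 (SE 0.52; edgeR adjusted p = 0.945), between 0.68 and 2.34 with 1 library left out. All 12 mitochondrial translation factors were in the table, with a median of -0.099 and 0 genes past either threshold in either direction. That median ran from -0.29 without *Bcor* WT replicate 2 to 0.072 without *Bcor* WT replicate 1.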

How the data were processed

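Quant-seq 3′ counts were analysed in 2 *Bcor* ΔE9-10 and 2 *Bcor* WT libraries of donor-derived KL cells. The authors trimmed reads with cutadapt (1.7 in the submitters' processing notes), aligned these to mm10 (HISAT2), and assigned them to genes by featureCounts of Subread; raw counts were deposited. Since 1 gene (*Gm4430*) has values that are not whole in replicate 2 of *Bcor* ΔE9-10 and in replicate 1 of *Bcor* WT, the authors' values in those libraries were read, by assumption, to be expected counts. The minimum level of the table is not given in the sources used here.

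Counts were rounded and fitted with edgeR 4.0.16 in R 4.3.3 (filterByExpr, which removed 0 genes, TMM, quasi-likelihood F test, prior count 0.125), with Benjamini-Hochberg adjustment over 12067 genes and a threshold of 0.05. The SE is the log2 fold change divided by the square root of F. Totals were 3825289.5 to 6253100.5 counts; the SE holds counting error and the spread between libraries. The genes, roles and lists were chosen with earlier results of these data known. Named were the 5 highest and 5 lowest log2 fold changes, any gene with p under 0.05, 10 anchor genes, the extreme gene of each role and paralog pairs; other genes are given by values and counts. Positions were from GENCODE M21 (GRCm38), promoters from RefSeq (GRCm38.p6). Pseudogenes of at least 95% identity over 50% of their length by blastn 2.17.0 were called near-identical copies. The *p* of a single ratio was not computed. Alternatives were other size factors, filters, prior count, limma-voom (limma 3.58.1), DESeq2 1.42.0, the replicate number as a block, *Gm42418* left out, copies added, and each library left out; the counts of non-overlapping genes with a library left out were added after seeing the data. The edgeR fit was tried on simulated counts with the library sizes of these data. At an adjusted p under 0.05 it recovered 30 of 93 genes set to a log2 fold change of 1.5 in size (32.3%). It recovered 95 of 105 set to 3 (90.5%), and 8 of its 133 calls were false. Figures used matplotlib 3.10.9.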

Additional observations from a re-analysis of the deposited data

How the results depend on the processing

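In the 9 alternatives that kept all libraries, each of the 30 named genes kept its direction and its side of the adjusted threshold. The filter of at least 10 counts in every library, under which *Eef1akmt2* dropped out, moved the median log2 fold change of the enzymes that modify elongation factors from 0.20 to 0.23. Unadjusted, limma-voom had 2 genes higher. The replicate block had 1 (*Eif4a2*, p = 0.0444), beside 1.22% of all genes higher in that fit; same-numbered libraries deviated with a correlation of -0.0945, so the numbers do not pair them, and the block changed no other count for the 63 genes. With each library left out in turn, 0 to 4 genes passed the adjusted threshold (6 to 596 of all genes), 0 to 10 were higher (0.580 to 11.9% of all genes) and 0 to 7 lower unadjusted (1.43 to 13.1%), and both *Bcor* ΔE9-10 libraries (or the one left) lay above *Bcor* WT for 21 to 39 genes (33.3 to 61.9%, beside 29.0 to 40.9% of all genes) and below for 8 to 19 (12.7 to 30.2%, beside 29.2 to 40.6%). The median log2 fold change of the 63 genes then ran from 0.035 to 0.19, and medians by role from 0.094 to 0.24 for the eIF1 and eIF1A family, -0.10 to 0.14 for elongation factors, -0.046 to 0.34 for eIF2, -0.35 to 0.20 for eIF2B, -0.24 to 0.55 for the eIF2alpha kinases, -0.098 to 0.17 for eIF3, 0.047 to 0.28 for cap binding, -0.19 to 0.055 for the eIF4E inhibitors, 0.098 to 0.31 for subunit joining and 0.17 to 0.26 for the enzymes that modify elongation factors. Of the named genes 19 kept their direction in every such fit and 11 did not: *Eef2* (-1.03 to 0.018), *Eif1* (-0.87 to 0.094), *Eif2s3x* (-0.12 to 0.50), *Eif2s3y* (-0.22 to 1.02), *Eif3j1* (-0.0091 to 0.098), *Eif3j2* (-1.03 to 0.38), *Eif4ebp1* (-0.59 to 0.45), *Eif4ebp3* (-0.14 to 0.54), *Eif4g1* (-0.044 to 1.61), *Eif4g3* (-0.36 to 0.37) and *Eif6* (-1.03 to 0.15). Over all 63 genes, including those outside the 30 named, 31 changed sign in at least 1 such fit. The cause was not tested. *Eef1akmt2*, at 9 to 31 counts, had the highest SE of the 63 genes (0.63), and *Eif4g1*, at 452 to 1593 counts, had 0.52. The relation of the SE to depth was not tested.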
